A study of Mus musculus with 6106 samples.

Results

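Regulatory T cells (Tregs) restrain other immune cells through a set of surface and secreted molecules, and 8 genes that encode such molecules or activate them were followed here: Lrrc32, Tgfb1, Itgb8, Entpd1, Nt5e, Ebi3, Il10 and Fgl2. They were chosen by name for their known roles, and all 8 were found among the 23725 genes of the deposited table. Of the 8, 6 had at least 50 UMIs (unique molecular identifiers, which count captured transcripts) over the 3 libraries and are called measured, whereas Il10 with 16 UMIs and Itgb8 with 11 fell short of that minimum.

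Splenic Tregs came from male mice, 10 months old and of the genotype B6 Nr4a1-Gfp Foxp3-Ires-Thy1.1, and no other allele or treatment is labelled. Viable cells, negative for DAPI and positive for TCRb, CD4 and Foxp3-Thy1.1, were sorted on green fluorescence into GFPlow (0 to 20%), GFPmed (40 to 60%) and GFPhigh (80 to 100%). Signals through the T cell receptor (TCR) switch on Nr4a1, a nuclear receptor gene, so the bins separate Tregs by how strongly this reporter was on. Each bin is 1 inDrops library, a droplet method for single cells, so there was no replicate check and no test between bins could be made. How many mice stand behind a library is not given in the sources used here.

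The molecules fall into 4 routes of suppression. Tgfb1 encodes transforming growth factor beta 1, which is secreted in a latent form. Lrrc32 encodes GARP, which holds that latent form on the Treg surface, and Itgb8 encodes the integrin subunit that pairs with the alpha V chain to release it. Entpd1 encodes CD39, which breaks extracellular ATP down to AMP, and Nt5e encodes CD73, which turns AMP into adenosine, a suppressive nucleoside. Ebi3 encodes the beta chain shared by interleukin 27 and interleukin 35, Il10 encodes interleukin 10, and Fgl2 encodes fibrinogen-like protein 2, a secreted effector of Tregs.

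The genes lie at separate places in the mouse genome (mm10, GENCODE M21). Lrrc32 spans chr7:98489283-98502181 and Tgfb1 chr7:25687002-25705077, both protein-coding genes on the plus strand. Itgb8 is on the minus strand at chr12:119158022-119238802. Entpd1 is at chr19:40612366-40741602 and Nt5e at chr9:88327197-88372092, Il10 at chr1:131019845-131024974, Ebi3 at chr17:55952640-55957022 and Fgl2 at chr5:21372642-21378374, all on the plus strand. Fgl2 overlaps Ccdc146 and Ebi3 overlaps Gm16712, each on the opposite strand, and Entpd1 overlaps Gm16027, Gm8783 and AC166063.1 on its own strand. Ccdc146 and Gm16712 had 0 UMIs in the cells used, and the overlapping genes of Entpd1 were not matched to the table. Whether the counting used strand is not given in the sources used here.

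Promoter sequences of 300 bases, from 250 before to 50 after the annotated start (RefSeq, GRCm38.p6), were matched for 6 of the 8 genes, with 7 promoters in all because Entpd1 has a pair of starts. Both strands were searched for letters bound by factors of TCR signalling and of Tregs: the NBRE of the NR4A receptors (AAAGGTCA), the CRE (TGACGTCA), AP-1 (TGANTCA), forkhead (GTAAACA), NFAT (TGGAAA) and SMAD (GTCTAGAC). Those letters occur in 1.51%, 1.79%, 7.81%, 3.65%, 21.4% and 0.213% of all 32851 promoters. The search gave 1 match in the 7 promoters, an AP-1 sequence of Fgl2 at -16 to -10 from the start, with the start counted as 0. The Fgl2 promoter, at chr5:21372423-21372722 on the plus strand, is shown with the match in capitals because Fgl2 alone among the measured genes was lower in both GFPmed and GFPhigh by more than 1.5-fold. That of Ebi3, at chr17:55952373-55952672 on the plus strand, is shown beside it because Ebi3 had the highest measured ratio and none of these letters.
Fgl2: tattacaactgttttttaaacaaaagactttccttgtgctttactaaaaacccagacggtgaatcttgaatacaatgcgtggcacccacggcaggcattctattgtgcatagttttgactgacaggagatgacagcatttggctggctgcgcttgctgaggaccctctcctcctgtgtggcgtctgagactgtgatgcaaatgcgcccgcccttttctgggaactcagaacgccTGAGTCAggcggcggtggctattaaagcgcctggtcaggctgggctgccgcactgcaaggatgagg
Ebi3: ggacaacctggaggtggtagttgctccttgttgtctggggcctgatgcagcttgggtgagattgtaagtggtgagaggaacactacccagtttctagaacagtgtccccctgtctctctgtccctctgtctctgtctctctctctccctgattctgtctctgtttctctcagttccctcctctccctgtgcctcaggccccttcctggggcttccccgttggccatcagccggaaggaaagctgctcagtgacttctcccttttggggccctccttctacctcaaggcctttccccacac
The Fgl2 window holds 12 CG dinucleotides and 51.7% G or C, and the Ebi3 window holds 2 CG dinucleotides and 56.3% G or C. By contrast, the Tgfb1 window holds 30 CG dinucleotides at 77% G or C and that of Nt5e 23 at 71%. A match is a description of letters and shows no binding, and a missing match says only that these letters are not in the window.

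Cells with at least 500 UMIs were used, 2123 in GFPlow, 1537 in GFPmed and 1775 in GFPhigh, or 5435 of 6106. The libraries held 2435870, 2512277 and 2270376 UMIs in these cells, at a median of 1085, 1540 and 1129 UMIs per cell, so GFPmed cells were read more deeply. Levels are UMIs of a gene per 1000000 UMIs of all genes in the bin (UPM), and a count of 0 has upper limits of 1.23, 1.19 and 1.32 UPM in the 3 libraries. Brackets hold 95% intervals, exact Poisson for a level, exact conditional binomial for a log2 ratio and exact Clopper-Pearson for a share of cells, and all of them cover counting error only. UMIs are not corrected for gene length and 1 gene is compared with itself between bins, never with another gene. Nr4a1 stood at 35.7, 92.7 and 340.5 UPM in GFPlow, GFPmed and GFPhigh, in the order of the sort, and Foxp3 at 389.6, 317 and 359 UPM. All 10 Treg markers were present in every library, at 4228, 4250 and 5548 UPM in sum. Myeloid markers summed to 9.03, 125 and 8.81 UPM, with Lyz1 the most abundant in GFPmed and Cd14, S100a8 and S100a9 at 0 in all bins. B cell markers, led by Cd74, summed to 273, 376 and 360 UPM, with Pax5 at 0. Between 20 and 29 cell barcodes were shared by each pair of libraries.

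GFPhigh Tregs had higher levels of Lrrc32, Tgfb1 and Ebi3 than GFPlow Tregs and lower levels of Entpd1 and Fgl2, while Nt5e differed little. Il10 was seen in GFPmed and GFPhigh cells and in no GFPlow cell. Summed over the 8 genes, GFPlow stood at 241 UPM [222, 262], GFPmed at 248 [229, 269] and GFPhigh at 320 [297, 344]. The sum hides opposite patterns among its members, which the plot of levels by bin sets side by side.

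**Figure D1:**
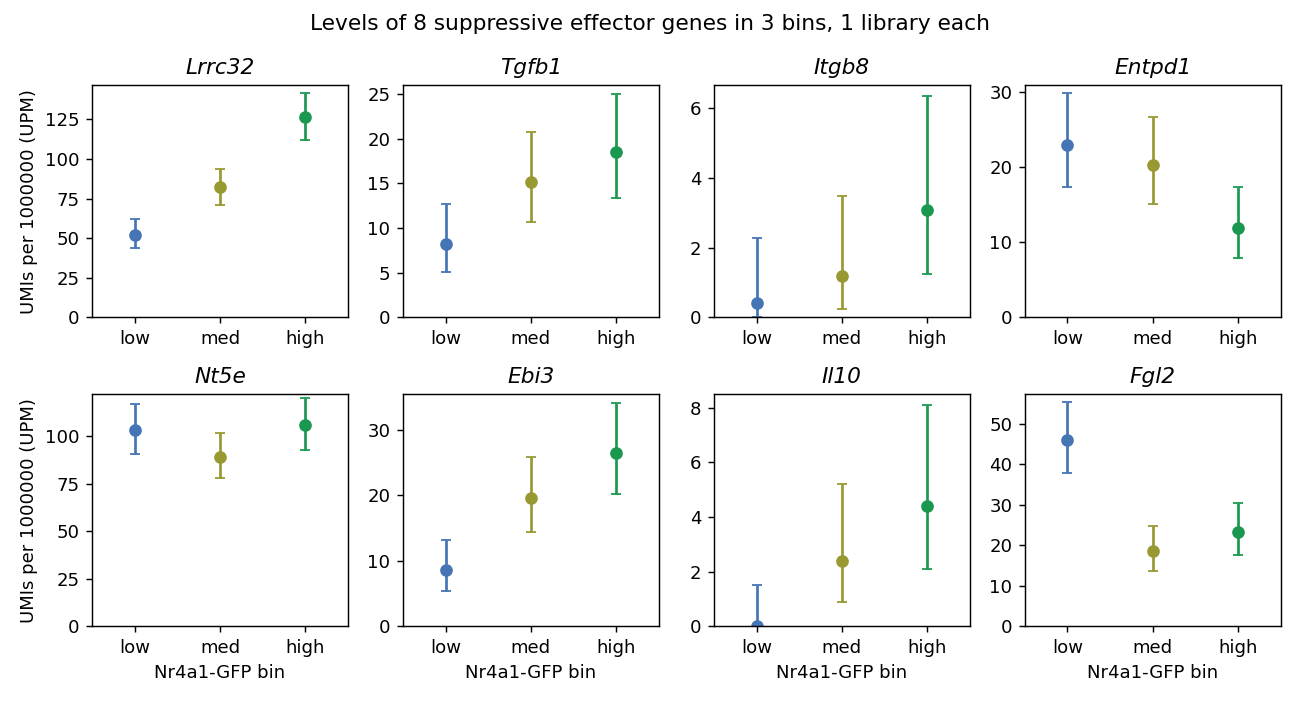
Level of each of the 8 genes (UPM, linear axes from 0, scaled per gene) in the GFPlow, GFPmed and GFPhigh libraries, with points for the 1 library of each bin and bars for exact 95% Poisson intervals. Lrrc32 climbs from 52.1 to 126 UPM across the bins, Entpd1 goes from 23.0 to 11.9, and Fgl2 is highest in GFPlow at 46.0.

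Lrrc32, the GARP gene that docks latent TGF-beta, had the clearest gradient. Its counts were 127 UMIs for GFPlow, 206 for GFPmed and 287 for GFPhigh, which give 52.1 UPM [43.5, 62.0], 82.0 [71.2, 94.0] and 126 [112, 142]. No pair of these intervals overlapped. The log2 ratio was 0.65 [0.33, 0.98] for GFPmed over GFPlow, 0.62 [0.36, 0.89] for GFPhigh over GFPmed and 1.27 [0.97, 1.59] for GFPhigh over GFPlow, a 2.42-fold difference. These UMIs were spread over 101, 162 and 210 cells, and the cell with most held 5 of the 206 GFPmed UMIs, so the gradient did not rest on few cells.

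Tgfb1, the cytokine that GARP docks, had the same order at a far lower count. Its counts were 20, 38 and 42 UMIs, or 8.21 UPM [5.02, 12.7], 15.1 [10.7, 20.8] and 18.5 [13.3, 25.0]. The log2 ratio of GFPhigh over GFPlow was 1.15 [0.37, 2.02] and that of GFPmed over GFPlow 0.86 [0.06, 1.74]. GFPhigh and GFPmed did not differ beyond counting error, at 0.29 [-0.38, 0.96]. Itgb8, the integrin subunit that activates latent TGF-beta, was nearly undetected, with 1, 3 and 7 UMIs in as many cells. Its log2 ratio of GFPhigh over GFPlow, 2.42 with an interval from -0.05 to 8.40, leaves its order undetermined.

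The 2 enzymes that lead from ATP to adenosine did not move together. Entpd1, the CD39 gene, had 56, 51 and 27 UMIs over the same order of bins, or 23.0 UPM [17.4, 29.9], 20.3 [15.1, 26.7] and 11.9 [7.84, 17.3]. GFPlow and GFPmed were alike within counting error at a log2 ratio of -0.18 [-0.76, 0.39], and GFPhigh stood lower than both, at -0.94 [-1.67, -0.26] against GFPlow and -0.76 [-1.50, -0.07] against GFPmed. Nt5e, the CD73 gene, had 251, 224 and 240 UMIs, or 103 UPM [90.7, 117], 89.2 [77.9, 102] and 106 [92.8, 120]. All 3 of its intervals overlapped, and its log2 ratio of GFPhigh over GFPlow was 0.04 [-0.22, 0.30]. The transcripts seldom met in a cell. Of the cells with an Entpd1 UMI, 12.8% in GFPlow, 12.5% in GFPmed and 9.52% in GFPhigh also held Nt5e, close to the 9.97%, 11.6% and 10.4% among the other cells. These shares rest on 6, 4 and 2 cells.

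Ebi3, the chain shared by interleukins 27 and 35, had the highest measured ratio. Its 21, 49 and 60 UMIs gave 8.62 UPM [5.34, 13.2], 19.5 [14.4, 25.8] and 26.4 [20.2, 34.0]. GFPlow lay under both other bins without overlap of the intervals, at log2 ratios of 1.16 [0.41, 1.99] for GFPmed and 1.59 [0.88, 2.41] for GFPhigh, and the last pair differed by 0.44 [-0.13, 1.01]. Neither partner chain was detected at this depth: Il12a, which completes interleukin 35, and Il27, which completes interleukin 27, had 0 UMIs in every bin.

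Il10 was rare. Its counts were 0, 6 and 10 UMIs from the lowest bin to the highest, or 0, 2.39 [0.876, 5.20] and 4.40 [2.11, 8.10] UPM. The GFPhigh level was 3.58-fold and the GFPmed level 1.94-fold the limit that 0 counts allow in the whole GFPlow library. These folds leave out the counting error of the Il10 count itself. The exact intervals of the ratios over GFPlow reach down to 2.40-fold for GFPhigh and 1.14-fold for GFPmed. Its UMIs came from few cells, 2 in GFPmed, of which 1 held 5 of the 6 UMIs, and 6 in GFPhigh, of which the top cell held 3 of 10. The GFPmed value therefore describes 1 cell for the most part.

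Fgl2 ran the other way. Its counts were 112 UMIs for GFPlow, 47 for GFPmed and 53 for GFPhigh, or 46.0 UPM [37.9, 55.3], 18.7 [13.7, 24.9] and 23.3 [17.5, 30.5]. GFPlow stood above both other bins without overlap, with log2 ratios of -1.29 [-1.82, -0.79] for GFPmed and -0.97 [-1.48, -0.49] for GFPhigh. Over all cells used, GFPmed and GFPhigh were not separated, at 0.32 [-0.27, 0.92] for GFPhigh over GFPmed. In GFPmed, 15 of the 47 UMIs, or 31.9%, lay in the 86 cells with at least 2 UMIs of other-lineage markers, against 2.68% in GFPlow and 5.66% in GFPhigh. Without such cells the log2 ratio of Fgl2 was -1.74 for GFPmed over GFPlow. That of GFPhigh over GFPmed was then 0.77, past 1.5-fold. The cells left out are called cells of other lineages below. Their markers include Irf4 and Prdm1, so some of them may be Tregs.

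Read against the table as a whole, the ratios of the 6 measured genes lay toward both ends and, for Nt5e, at the middle. For GFPhigh over GFPlow, 3 of 6 were higher by more than 1.5-fold (Lrrc32, Tgfb1 and Ebi3), where 9.79% of the 8633 measured genes were, and 2 of 6 were lower (Entpd1 and Fgl2), where 6.49% were. Their median log2 ratio was 0.60, against 0.04 for all measured genes. For GFPmed over GFPlow, the same 3 were higher, against 5.61% of genes, and Fgl2 alone was lower, against 6.14%, with medians of 0.24 and -0.04. For GFPhigh over GFPmed, Lrrc32 was higher and Entpd1 lower, against 8.53% and 4.51% of genes, with medians of 0.30 and 0.08. The 3 comparisons share libraries and are not independent of each other. As a description, 98.6% of measured genes had a lower ratio of GFPhigh over GFPlow than Lrrc32, 99.2% than Ebi3, 98.1% than Tgfb1, 50.1% than Nt5e, 1.99% than Entpd1 and 1.89% than Fgl2. With 6 genes these counts say nothing particular of suppressive genes as a class.

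**Figure D2:**
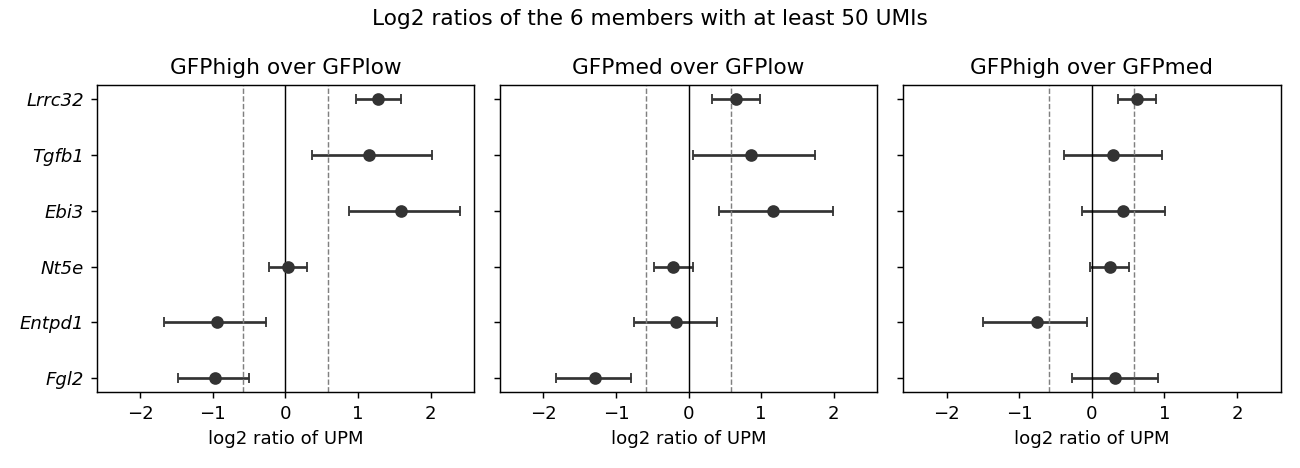
Log2 ratio of UPM for the 6 measured genes in each pair of bins, with points for the ratio of the 2 libraries, bars for exact 95% intervals of counting error and dashed lines at 1.5-fold. Lrrc32 lies to the right of 0 in all 3 panels, Fgl2 lies to the left in both comparisons with GFPlow, and Nt5e stays near 0.

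A summed level does not tell more cells from more RNA per cell apart, and depth differed, so each cell was thinned to 500 UMIs and the cells with a UMI were counted. The share with an Lrrc32 UMI was 2.21% [1.63, 2.93] in GFPlow, 3.51% [2.65, 4.56] in GFPmed and 5.35% [4.35, 6.50] in GFPhigh, in the order of the summed levels (4.76%, 10.5% and 11.8% before thinning). Nt5e gave 5.13%, 4.36% and 4.39% (10.0%, 11.6% and 10.4% before), with overlapping intervals. Entpd1 gave 1.41% [0.955, 2.01], 0.846% and 0.451% [0.195, 0.886]. GFPlow and GFPhigh did not overlap at this depth for Entpd1, but they did at 1000 UMIs, 2.21% [1.47, 3.18] and 1.41% [0.791, 2.31], and before thinning, 2.21% [1.63, 2.93] and 1.18% [0.734, 1.80]. Fgl2 gave 2.07%, 1.11% and 1.30%, Ebi3 0.471%, 0.911% and 1.07% and Tgfb1 0.283%, 0.651% and 0.732%. For these 3 genes the intervals of GFPlow and GFPhigh overlapped at this depth. At 1000 UMIs those of Fgl2 and Tgfb1 still did, but Ebi3 was separated, at 0.315% [0.086, 0.806] and 2.07% [1.30, 3.11]. Without thinning none of the 3 overlapped between GFPlow and GFPhigh. The intervals were then [0.54, 1.39] and [1.86, 3.38] for Ebi3 and [0.576, 1.45] and [1.71, 3.19] for Tgfb1. For Fgl2 they were [3.21, 4.93] and [1.19, 2.47]. The median depth of these bins was 1085 and 1129 UMIs. Free RNA in droplets can give such UMIs too. As a background, 79 cells with at least 5 UMIs of B cell, erythroid or myeloid markers were taken (median 1248 UMIs). Of them, 0 held an Lrrc32, Tgfb1, Entpd1, Nt5e, Ebi3, Il10 or Itgb8 UMI after thinning. This allows a share of up to 3.80% by 3 counts or 4.56% by the Clopper-Pearson limit. The GFPlow share of Nt5e and the GFPhigh share of Lrrc32 stood above both limits. Before thinning, Tgfb1 was in 2 of the 79, or 2.53% [0.308, 8.85], where the bins had 0.942%, 2.41% and 2.37%. Its shares were thus not shown to be above this background, which rests on 2 cells. Whether the Tgfb1 UMIs of these 2 cells were free RNA or their own transcripts was not tested. Lrrc32 and Ebi3 were in 1 of the 79 each, or 1.27%, before thinning, where Ebi3 had 0.895%, 2.47% and 2.54% in the bins. Fgl2 was found after thinning in 3 of the 79, 3.80% [0.790, 10.7], and its thinned shares in the sorted bins are not above that value. Without thinning it was in 5 of the 79, or 6.33%, again not below its shares in the bins. The 79 include myeloid-marked cells, a lineage known to express Fgl2. At least 1 of the 8 genes was seen after thinning in 11.0%, 11.0% and 12.7% of the cells of the 3 bins, lowest first (20.9%, 27.4% and 26.1% before), and no cell held more than 3 of them.

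Which Tregs carried these transcripts was examined with 3 gates, each set at 2 or more UMIs of its genes in a cell thinned to 500 UMIs. The effector gate used S100a4, S100a6, Ccr2, Itgb1, Klrg1, Il1rl1, Ahnak and Myo1f, genes of activated tissue-homing Tregs. A TCR early gate used Nr4a1, Nr4a3, Egr1, Egr2, Egr3, Cd83, Tnfrsf4, Tnfrsf9, Irf4, Myc and Nfkbid, and a central gate used Igfbp4, Ccr7, Lef1, Tcf7, Satb1 and Ly6c1, genes of resting lymphoid Tregs. None of the 8 suppressive genes is a gate gene, but Nr4a1 is the gene whose reporter was sorted. A gate is a range of counts and not a cell type. The effector gate held 399 GFPlow, 113 GFPmed and 76 GFPhigh cells, or 18.8%, 7.35% and 4.28%, with 281, 112 and 171 cells 1 UMI short of it. The TCR early gate held 4.05%, 6.31% and 14.5%, with 225, 202 and 348 cells 1 UMI short. The central gate held 20.3%, 22.3% and 16.3%, with 481, 434 and 483 cells 1 UMI short. Cells of the effector gate held a median of 0 central gate UMIs in each bin and a median TCR early count of 0, 0 and 0.5.

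**Figure D3:**
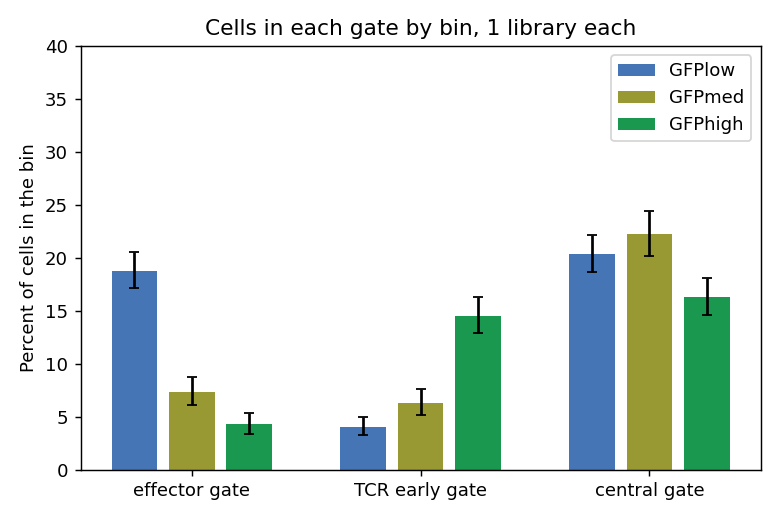
Percent of the cells of each bin inside the effector, TCR early and central gates (2 or more UMIs of the gate's genes after thinning to 500 UMIs), with bars from 0 for the 1 library of each bin and exact 95% Clopper-Pearson intervals. The effector gate shrinks from 18.8% of GFPlow to 4.28% of GFPhigh cells while the TCR early gate grows from 4.05% to 14.5%.

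Fgl2 was concentrated in effector-gated cells in every bin. Inside the gate GFPlow stood at 126 UPM [95, 164], GFPmed at 120 [76.4, 181] and GFPhigh at 254 [163, 379], against 28.5 [21.6, 36.9], 10.3 [6.62, 15.4] and 13.3 [8.93, 19.1] outside. These are log2 ratios of inside over outside of 2.15 [1.58, 2.71], 3.54 [2.65, 4.43] and 4.26 [3.41, 5.09]. The gate's 18.8%, 7.35% and 4.28% of cells held 49.1%, 48.9% and 45.3% of the Fgl2 UMIs. In GFPmed the gated count of 23 Fgl2 UMIs was 11 without cells of other lineages, which gives 74.8 UPM [37.3, 134], and the log2 ratio of inside over outside was then 2.14, 2.99 and 4.34 in the 3 bins. Cells with an Fgl2 UMI made up 10.3% [7.48, 13.7] of gated GFPlow cells, 10.6% [5.61, 17.8] of gated GFPmed and 19.7% [11.5, 30.5] of gated GFPhigh cells. Outside they were 2.55%, 1.40% and 0.942% without thinning. The median depth inside and outside the gate was 1036 and 1100 UMIs in GFPlow, 1352 and 1560.5 in GFPmed and 1180.5 and 1124 in GFPhigh.

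The order of the bins for Fgl2 depended on the gate. Among gated cells GFPhigh stood above GFPlow, at a log2 ratio of 1.03 [0.26, 1.73] from 24 and 55 UMIs, whereas outside the gate it stood below, at -1.08 [-1.79, -0.43]. GFPmed did not differ from GFPlow inside beyond counting error, at -0.05 [-0.84, 0.66], and was lower outside at -1.45 [-2.22, -0.75]. So the lower summed level of Fgl2 in GFPhigh went with fewer gated cells and with a lower level outside the gate, while the level among gated cells was not lower. With a gate of at least 3 UMIs the GFPhigh over GFPlow ratio inside was 0.88 [-0.23, 1.79], and without cells of other lineages it was 1.08 [0.29, 1.80] and the GFPmed over GFPlow ratio -0.72 [-1.85, 0.19]. GFPhigh over GFPmed inside the gate was 1.08 [0.19, 1.97]. It was 0.71 [-0.51, 1.87] with a gate of at least 3 UMIs and 1.80 [0.74, 3.02] without cells of other lineages.

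**Figure D4:**
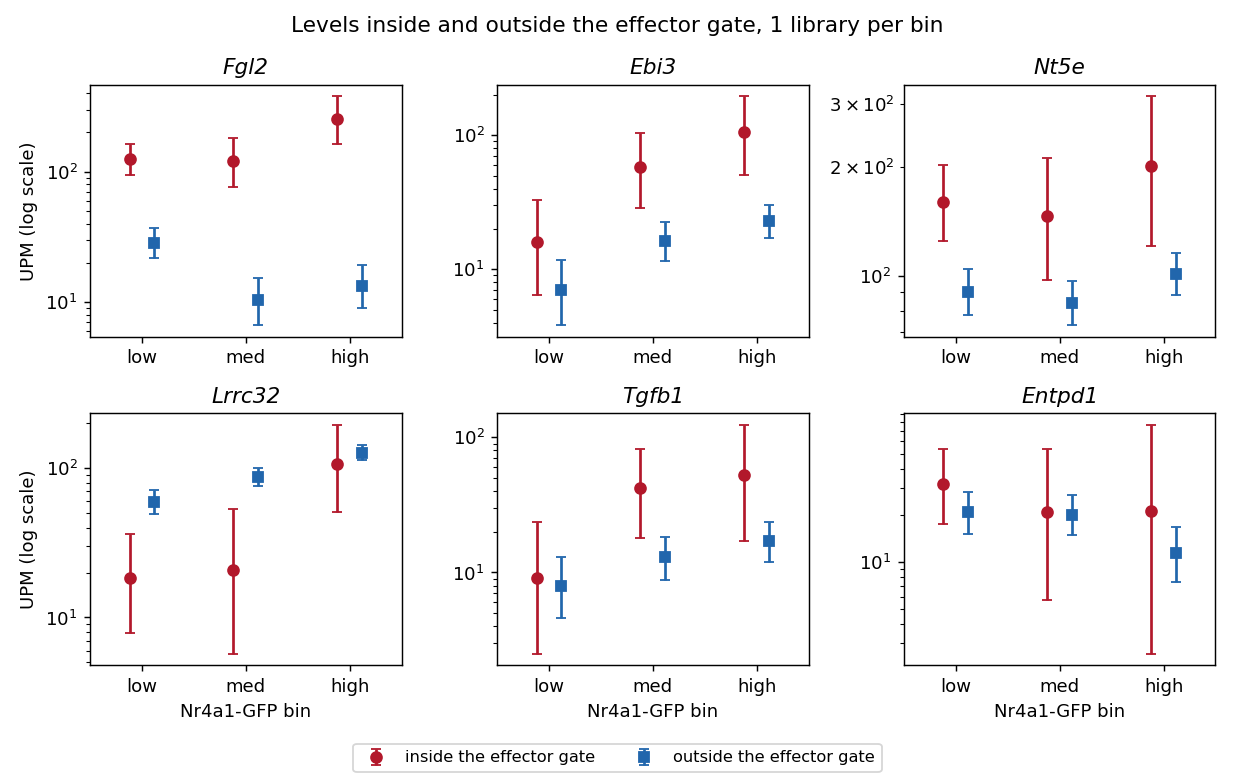
Level (UPM, log axes that differ between genes) inside (circles) and outside (squares) the effector gate for the 6 measured genes in each bin, with points for the 1 library of each bin and bars for exact 95% Poisson intervals. Fgl2 lies far higher inside, from 120 to 254 UPM against 10.3 to 28.5, whereas Lrrc32 lies lower inside in GFPlow and GFPmed.

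Ebi3 and Nt5e were also higher inside the effector gate, by less. Ebi3 stood at 16.0 UPM against 7.0 outside in GFPlow, 57.6 against 16.4 in GFPmed and 106 against 23.0 in GFPhigh, and its interval for inside over outside left out 0 in GFPmed and GFPhigh, at 1.86 [0.70, 2.81] and 2.26 [1.06, 3.20]. With a gate of at least 3 UMIs the GFPmed value of Ebi3 was 1.20 [-0.89, 2.5], from 4 UMIs inside. Its gradient over the bins was present on both sides of the gate, at a log2 ratio of GFPhigh over GFPlow of 2.69 [1.18, 4.35] inside and 1.68 [0.84, 2.68] outside. Nt5e, flat in the summed libraries, stood at 160 UPM inside against 90.5 outside in GFPlow, 147 against 84.4 in GFPmed and 201 against 102 in GFPhigh. The log2 ratios of Nt5e were 0.83 [0.41, 1.23], 0.82 [0.17, 1.37] and 1.02 [0.23, 1.67]. With a gate of at least 3 UMIs all 3 intervals of Nt5e held 0, at 0.53 [-0.01, 1.01], 0.78 [-0.12, 1.49] and 1.08 [-0.07, 1.92], and without cells of other lineages that of GFPhigh did, at 0.60 [-0.38, 1.36].

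Lrrc32 had the opposite arrangement in 2 of the 3 bins. In GFPlow it stood at 18.3 UPM inside the effector gate and 59.5 outside, a log2 ratio of -1.62 [-2.94, -0.67], and in GFPmed at 21.0 and 87.0, a ratio of -1.89 [-3.94, -0.68]. In GFPhigh the levels were 106 and 127 UPM and the interval of the ratio, -0.20 [-1.34, 0.64], holds 0. Few UMIs stand behind the gated levels, 8, 4 and 10. With a gate of at least 3 UMIs, 2 of the 10 were left in GFPhigh, at 41.7 UPM inside against 128 outside and a ratio of -1.30 [-4.67, 0.25], so GFPhigh was not shown to differ from the other bins in this. The rest of the GARP gene's UMIs lay outside the gate, and its gradient was there too, at 1.09 [0.78, 1.42] for GFPhigh over GFPlow. Inside the gate that ratio was 2.51 [1.04, 4.07], from 10 and 8 UMIs. With a gate of at least 3 UMIs it was 1.43 [-2.14, 3.86]. Tgfb1 inside over outside was 0.32 [-1.84, 1.83], 1.76 [0.36, 2.86] and 1.76 [-0.06, 2.99]. Without cells of other lineages the Tgfb1 ratio was 1.42 [-0.41, 2.69] in GFPmed and 1.92 [0.09, 3.16] in GFPhigh. Entpd1 was not separated by the effector gate in any bin, from 0.20 to 1.18 with intervals that hold 0.

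All 6 Il10 UMIs of GFPmed and 6 of the 10 of GFPhigh lay in effector-gated cells, which were both Il10 cells of GFPmed and 3 of 6 in GFPhigh. Both GFPmed cells lay at the edge of the gate: at 3 or more UMIs it held 0 of the 6 GFPmed UMIs and still 6 of the 10 of GFPhigh. Il10 was not particular to the effector gate. The TCR early gate held 5 of the 6 UMIs of GFPmed, all in 1 cell, and 6 of the 10 of GFPhigh, in 3 cells. In each of these bins 1 Il10 cell lay in both gates. Il10 was in no central-gated cell of any bin. GFPlow, which had the most effector-gated cells, had no Il10 UMI in any of its 399, which allows up to 6.88 UPM there. The effector-gated levels were 31.4 UPM [11.5, 68.4] in GFPmed and 63.6 [23.3, 138] in GFPhigh.

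Central-gated cells held little Fgl2 or Ebi3. Fgl2 had 3, 1 and 0 UMIs in them, 5.98 and 1.84 UPM in GFPlow and GFPmed and at most 8.56 in GFPhigh, against 56.3, 23.4 and 27.6 outside, and its log2 ratio of inside over outside was -3.02 [-5.54, -1.65] in GFPlow. Ebi3 had 0, 2 and 5 UMIs there, and in GFPhigh its 14.3 UPM inside and 28.6 outside did not differ beyond counting error, at -0.88 [-2.68, 0.30]. Nt5e stood at 81.8, 60.8 and 77.1 UPM inside against 109, 97.0 and 111 outside, and its interval left out 0 in GFPmed alone, at -0.66 [-1.25, -0.13]. Entpd1 had 5, 2 and 8 UMIs there, at -1.28 [-3.09, -0.09], -2.45 [-5.84, -0.82] and 1.26 [-0.19, 2.46] for inside over outside. Its GFPhigh over GFPmed ratio was 2.40 [0.31, 5.90] inside and -1.31 [-2.18, -0.54] outside. The 8 GFPhigh UMIs inside came from 4 cells, of which 1 held 4. Lrrc32 was present in central-gated cells, at 55.8 [37.1, 80.7], 59.0 [40.3, 83.3] and 88.5 [60.1, 126] UPM against 51.2, 88.3 and 133 outside. Its log2 ratio of inside over outside was 0.14 [-0.53, 0.74] in GFPlow, -0.56 [-1.17, -0.03] in GFPmed and -0.57 [-1.18, -0.05] in GFPhigh. Among these cells its GFPhigh over GFPlow ratio was 0.66 [-0.12, 1.45], from 31 and 28 UMIs, so the bins were not separated at this depth.

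In TCR early-gated cells, which carry the transcripts of recent stimulation, Tgfb1 stood at 22.1, 33.0 and 35.0 UPM against 7.67, 14.0 and 15.6 outside, and the interval left out 0 in GFPhigh alone, at 1.20 [0.07, 2.18]. Nt5e stood at 166, 165 and 140 UPM against 101, 84.3 and 99.6. Lrrc32 differed little, with 158 against 121 UPM in GFPhigh and a log2 ratio of 0.39 [-0.07, 0.81]. Outside the gate its GFPhigh over GFPlow ratio was 1.24 [0.92, 1.57]. Cells outside are not free of the gate's transcripts, as 225 GFPlow and 348 GFPhigh cells there held 1 UMI. The mean gate count outside was 0.110 UMIs in GFPlow and 0.229 in GFPhigh. Whether the Lrrc32 gradient is separate from recent stimulation was therefore not tested. Fgl2 in GFPhigh stood at 72.9 UPM inside and 14.5 outside, but 8 of its 25 UMIs inside came from 1 cell.

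Pairs of the 8 genes were rarely seen in 1 cell. Cells were not thinned for this count, and the pairs given here were chosen after the values of all pairs of measured genes were seen. Among GFPlow cells with an Ebi3 UMI, 4 of 19, or 21.1%, held Fgl2, against 3.85% of the other cells, but 2.63% and 2.22% did in GFPmed and GFPhigh. Among GFPhigh cells with a Tgfb1 UMI, 7 of 42, or 16.7%, held Ebi3, against 2.19% of the other cells, and the counts were 2 of 37 in GFPmed and 0 of 20 in GFPlow. Lrrc32 and Tgfb1, whose proteins act together, met in 2, 2 and 6 cells, 2.86% of the Lrrc32 cells of GFPhigh against 2.30% of the others.

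The counts of the wider pathways are read against the same shares of all measured genes, 9.79% higher and 6.49% lower for GFPhigh over GFPlow, 5.61% and 6.14% for GFPmed over GFPlow and 8.53% and 4.51% for GFPhigh over GFPmed. Of the 27 TGF-beta pathway genes besides the 3 above, 19 were measured, 2 were higher by more than 1.5-fold in GFPhigh than in GFPlow, 2 were lower and the median log2 ratio was -0.03, near the 0.04 of all genes. Tgfbr1, a receptor chain, was higher at 0.64 [0.30, 0.98], while Itgae, the alpha E integrin chain, was lower at -1.45 [-2.01, -0.93] and Itgb1, an integrin beta chain and a gene of the effector gate, at -1.60 [-1.76, -1.45]. Smad3, a signal transducer of the pathway, had -0.51 [-0.92, -0.11]. For GFPmed over GFPlow 0 were higher and 4 lower (median 0.00), and for GFPhigh over GFPmed 2 were higher and 1 lower (median 0.15). Itgav, the partner chain of Itgb8, had 59.1, 33.0 and 58.6 UPM.

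Among 30 other genes of nucleotide and adenosine handling, 20 were measured, and GFPhigh over GFPlow gave 2 higher and 3 lower (median 0.10). Cd38, an ectoenzyme that consumes NAD, was higher at 1.05 [0.57, 1.56], and Entpd5, an intracellular relative of CD39, was lower at -1.24 [-1.81, -0.72], as Entpd1 was. Panx1, a channel that releases ATP, had 0.46 [0.13, 0.80] and Adora2a, the main adenosine receptor of T cells, 0.35 [-0.11, 0.82], both within 1.5-fold. The counts were 0 higher and 1 lower for GFPmed over GFPlow (median 0.01) and 1 higher and 2 lower for GFPhigh over GFPmed (median 0.03).

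For the interleukin 12 family, 10 of 16 genes were measured, and GFPhigh over GFPlow gave 1 higher and 0 lower (median -0.03). The higher gene was Il6st, the gp130 receptor chain, at 56.2, 79.6 and 91.2 UPM over the bins and a log2 ratio of 0.70 [0.38, 1.02]. Il27ra, the specific receptor of interleukin 27, had -0.25 [-0.52, 0.01] and Stat4, a signal transducer of the family, -0.38 [-0.69, -0.06], both within 1.5-fold. GFPmed over GFPlow gave 0 higher and 1 lower (median -0.11), and GFPhigh over GFPmed 0 and 0 (median 0.02). Il12rb2, a receptor chain of interleukin 35, had 0 UMIs.

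The list around interleukin 10, its receptors and the factors that control it, had 11 of 17 genes measured, and 2 were higher and 5 lower for GFPhigh over GFPlow (median -0.49). Maf and Prdm1, transcription factors that drive Il10 in T cells, were lower, Maf at 270, 108 and 128 UPM and a log2 ratio of -1.08 [-1.28, -0.88] and Prdm1 at -0.88 [-1.40, -0.38]. Socs3, a feedback inhibitor of cytokine receptors, was lower at -0.91 [-1.12, -0.71], and Bhlhe40, a repressor of Il10, was higher at 1.61 [0.98, 2.32]. Irf4, in the same list and in the TCR early gate, went the other way from Maf and Prdm1, at 0.72 [0.21, 1.24]. Il10 itself had its highest level in GFPhigh, where Maf and Prdm1 were below, and Bhlhe40 and Irf4 above, their GFPlow levels. Its GFPhigh and GFPmed levels did not differ beyond counting error, at 0.84 [-0.72, 2.63]. For GFPmed over GFPlow 0 were higher and 4 lower (median -0.36), and for GFPhigh over GFPmed 3 were higher and 0 lower (median 0.34).

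Of 27 further suppressive molecules of Tregs, 21 were measured and 6 were higher, 2 lower and 13 within 1.5-fold for GFPhigh over GFPlow, with a median of 0.08. Penk, proenkephalin, had 4.32 [3.62, 5.22], Tnfrsf9, the costimulatory receptor 4-1BB and a gene of the TCR early gate, 3.71 [3.31, 4.17], Pdcd1, the inhibitory receptor PD-1, 2.20 [1.60, 2.88] and Izumo1r, folate receptor 4, 0.83 [0.75, 0.91]. All 4 of these ratios are positive, and the first 3 exceed that of each measured gene among the 8. For GFPmed over GFPlow 3 were higher and 4 lower (median -0.10), and for GFPhigh over GFPmed 7 were higher and 3 lower (median 0.34).

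The genes nearest in profile were taken from 3485 genes with at least 300 UMIs by the distance between their log2 ratios of GFPmed over GFPlow and of GFPhigh over GFPmed, a likeness over 3 libraries only. Nearest to Fgl2 was Maf, at a distance of 0.08, followed by Ahnak, a gene of the effector gate, at 0.32. Lrrc32 was nearest to Mapkapk2 (0.05) and Ncoa7 (0.07), and Entpd1 to Iqgap2 (0.04) and Slc17a9 (0.09). Tgfb1 was nearest to Nkain3 (0.15) and Foxn3 (0.21). Ebi3 had no gene within 0.2, the nearest being Ephx1 (0.45) and Nkain3 (0.48), while 857 genes lay within 0.2 of Nt5e, led by Utp18 and Sf3b5.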

How the data were processed

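The authors deposited 1 table of raw UMI counts per gene and cell, made from inDrops libraries of 3 sorted bins. TopHat2, SAMtools and the mm10 genome are named in the submitters' processing notes. Versions, the annotation, the counting program, its use of strand and the rule for collapsing UMIs are not given in the sources used here. The counts were whole numbers that summed to 98.7% of the UMIs given in the labels, and 0 columns belonged to no sample.

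Counts of cells with at least 500 UMIs were summed per bin and scaled to UPM. Before each log2 ratio 0.5 UMI was added to both counts, and a count of 0 was given a limit of 3 counts. A gene counted as measured from 50 UMIs over the bins upward. A difference of more than 1.5-fold was counted without a test, since cells of 1 library are not replicates. Python 3.11.15, numpy 2.4.6 and scipy 1.17.1 were used, and R 4.3.3 with edgeR 4.0.16 and DESeq2 1.42.0 only for alternative scalings. Libraries were simulated for GFPhigh over GFPlow by Poisson draws of the gene totals, with 200 of 8633 genes changed. In them 100% of changed genes had the right sign and 95.6% of intervals held the true ratio. Such draws follow the model behind the intervals and hold no cells. They check the computation only, and cannot show how the intervals fare when UMIs of a gene gather in few cells.

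The genes, lists, gates and tests were chosen with earlier results of these data known. Named were the 8 genes, up to 4 genes per list with the largest ratio of GFPhigh over GFPlow among those with at least 100 UMIs, the 2 nearest genes of each measured member, sort checks and leading markers. Partner chains, Itgav and, in the interleukin 10 list, Irf4 were added after their values were seen. A gene that this rule names in the interleukin 12 list and a gene of the central gate are not reported here, and the latter was taken out of the gate after its values were seen. Vsir is listed as 4632428N05Rik, and Hba-a1 did not match. No doublet caller was run. Other lineages were B cell, plasma, myeloid, CD8 or NK, erythroid and platelet markers. The background cells for free RNA were chosen on B cell, erythroid and myeloid markers only. Plasma markers, led by Xbp1 in GFPlow and GFPmed and Jchain in GFPhigh, summed to 164, 94.3 and 385 UPM, CD8 or NK markers, led by Cd8b1, to 50.9, 123 and 75.8, erythroid markers, led by Hba-a2, to 1399, 3002 and 1051, and platelet markers to 0.821, 1.59 and 0.881. Of the plasma markers, Prdm1 and Irf4 are also in the interleukin 10 list, and Irf4 is a gene of the TCR early gate. Cells counted as other lineages may therefore include Tregs. Alternatives covered scaling, cell and gene minimums, cell weighting, high-depth cells, other-lineage cells, top cells, the added count, the fold and the thinning depth.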

Additional observations from a re-analysis of the deposited data

Results flagged for a closer look

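Cells under 500 UMIs took no part in the comparisons, yet they held transcripts of 5 of the 8 genes above the limit that a count of 0 allows. Lrrc32 had 26 UMIs there, 7, 2 and 17 from the lowest bin to the highest, and the order of GFPlow and GFPhigh was that of the larger cells. Nt5e had 42 UMIs, 10, 11 and 21 by bin. Fgl2 had 8, of which 6 were in GFPlow, as in the larger cells. Ebi3 had 7, of which 5 were in GFPlow, the reverse of its order in the larger cells at a very small count. Tgfb1 had 6, with 1 in GFPlow and 5 in GFPhigh.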

How the results depend on the processing

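No measured gene changed the sign of a ratio past 1.5-fold under the 10 alternatives of scaling, cells, weighting and added count. Under them the median log2 ratio of the 6 genes stayed positive in all 3 comparisons. It ran from 0.44 to 0.66 for GFPhigh over GFPlow and from 0.14 to 0.32 for GFPmed over GFPlow. For GFPhigh over GFPmed it ran from 0.12 to 0.59. The sign of Nt5e for GFPhigh over GFPlow held in 6 of 10 and that of Fgl2 for GFPhigh over GFPmed in 9 of 10. Counts past the fold moved more. For GFPhigh over GFPlow, 5 genes were higher when any UMI sufficed, which adds Il10 and Itgb8, and 0 were lower at 2-fold. For GFPmed over GFPlow, 5 were higher when any UMI sufficed, 1 at 2-fold, and 1 outside an effector gate of 1 UMI. For GFPhigh over GFPmed, 0 were higher under TMM scaling, DESeq2 size factors, a total without ribosomal protein genes, without the top 2 percent of cells by UMIs, outside the effector gate and at 2-fold, against 3 in cells with at least 1000 UMIs and 3 when any UMI sufficed, and 0 were lower in cells with at least 1000 UMIs, without the top 2 percent, outside an effector gate of 1 UMI and at 2-fold. Without cells of other lineages 1 gene was still higher for GFPhigh over GFPmed, but it was Fgl2 at 0.77, while Lrrc32 stood at 0.56. The cause of the other moves was not tested. Alternatives on the effector gate were chosen after seeing the data, and 72 of 72 gate values of the 6 measured genes stayed within the wide counting intervals of the first, although some intervals then held 0, as given above. Il10 in GFPmed did not, with 0 UMIs in a gate of at least 3 UMIs. In cells outside a gate of 1 UMI the GFPhigh over GFPlow log2 ratio moved to 0.97 for Lrrc32 and 2.63 for Ebi3. Outside the effector gate of 2 UMIs Il10 had 0 UMIs in GFPlow and GFPmed, so GFPmed over GFPlow has no ratio there. The GFPhigh ratio was 3.05 over GFPlow and 3.26 over GFPmed, each from 4 UMIs against 0 and with 0 in the interval. The latter had moved from 0.84. Of 48 shares of cells at another thinning depth 31 moved, as a share depends on depth. No paired analysis was possible because each bin has 1 library. Depth limits Itgb8, Il10 and the gated levels.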
